A study of Mus musculus with 3 samples.

Results

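The 10 genes Fos, Fosb, Fosl2, Jun, Junb, Jund, Atf3, Egr1, Ier2 and Nr4a1, immediate-early genes and members of the AP-1 group of transcription factors, were examined for chromatin accessibility in mouse long-term hematopoietic stem cells (LT-HSCs). They were taken by name, all 10 were found, and they are 10 of the 21646 protein-coding genes annotated on chromosomes 1 to 19 and X. For each gene, transposase fragments were counted in 500-bp bins over the gene body and 30 kb on either side. All chromatin values come from 1 ATAC library of 1 preparation of wild-type C57BL/6 (C57BL/6J in the study's methods) bone marrow from female mice of 8 weeks. The RNA library of the same cells gave the RNA UMIs per cell and entered the cell call. No source used here gives the number of mice. Marrow was released by crushing bones, enriched for c-Kit with magnetic beads and sorted as LSK CD48- CD150+ CD34- cells, and the cells were permeabilised and profiled by DOGMA-seq, which reads chromatin, RNA and antibody tags from the same cell. No cells handled another way were analysed here, so a chromatin state present in the marrow and one acquired during handling cannot be told apart. With 1 library there is no replicate and no test, and the intervals given are 95% exact binomial intervals over cells that cover counting error only. Transcript counts of these genes and the antibody tags were not used here.

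Immediate-early genes are transcribed within minutes of a stimulus, without the need for new protein. AP-1 is a dimer of basic leucine zipper proteins, typically 1 from the Fos family and 1 from the Jun family, that binds the motif TGANTCA, and Atf3 belongs to the same protein class. Egr1 is a zinc finger transcription factor, Nr4a1 is an orphan nuclear receptor, and Ier2 is a nuclear protein whose gene responds within the same time. In hematopoietic stem cells, Egr1, Nr4a1 and Junb are known for their links with quiescence and restrained proliferation.

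A total of 3108 of 3757 called cells passed the minimum of over 3000 fragments in peaks, with a median of 11442 fragments per cell (3970 to 194134) and 37137164 fragments in all. A bin was called open when at least 2% of these cells, that is 63 cells, had a fragment centred in it. Of the defining markers fixed for the sorted cells, 7 of 8 LT-HSC genes had an open start bin, from 0.804% of cells with a promoter fragment at Ly6a, the exception, to 39.4% at Hlf. All 4 megakaryocyte markers were also open at the start, with Itga2b highest at 23.6%, whereas none of 4 T cell, 4 erythroid and 4 neutrophil and monocyte markers was. Of the B cell and of the stromal and endothelial markers, 1 of 4 each was open (Ebf1 at 6.31% and Cxcl12 at 4.50%). The part of megakaryocyte-type accessibility in the results below was not tested.

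The promoters of 6 of these genes are shown because their accessibility is the base of all comparisons that follow, and because they differ in the motifs they carry. The strands run 5′ to 3′ from 250 bases before the RefSeq start to 30 after it (GRCm38.p6, the build of the fragments). Capitals mark the core of the cAMP response element (CRE core, TGACG or CGTCA) and the TATA box (TATAAA on the sense strand).
Fos, chr12:85473640-85473919, + strand: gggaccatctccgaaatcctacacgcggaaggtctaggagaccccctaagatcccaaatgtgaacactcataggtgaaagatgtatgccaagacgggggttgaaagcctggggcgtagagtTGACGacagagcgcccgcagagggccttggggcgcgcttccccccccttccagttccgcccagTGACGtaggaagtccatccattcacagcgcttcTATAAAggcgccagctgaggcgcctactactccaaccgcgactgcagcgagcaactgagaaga
Fosb, chr7:19310016-19310295, - strand: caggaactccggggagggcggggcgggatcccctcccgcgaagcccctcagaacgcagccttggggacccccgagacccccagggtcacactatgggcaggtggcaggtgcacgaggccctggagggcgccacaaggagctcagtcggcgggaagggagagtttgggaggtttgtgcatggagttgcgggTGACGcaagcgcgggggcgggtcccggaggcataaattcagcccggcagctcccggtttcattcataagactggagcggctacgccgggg
Jun, chr4:95052193-95052472, - strand: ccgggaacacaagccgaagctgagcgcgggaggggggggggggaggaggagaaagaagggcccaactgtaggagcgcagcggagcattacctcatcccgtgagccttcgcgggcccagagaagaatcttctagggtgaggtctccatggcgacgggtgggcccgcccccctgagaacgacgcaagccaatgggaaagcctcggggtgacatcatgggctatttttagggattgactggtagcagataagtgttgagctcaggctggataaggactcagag
Junb, chr8:84978719-84978998, - strand: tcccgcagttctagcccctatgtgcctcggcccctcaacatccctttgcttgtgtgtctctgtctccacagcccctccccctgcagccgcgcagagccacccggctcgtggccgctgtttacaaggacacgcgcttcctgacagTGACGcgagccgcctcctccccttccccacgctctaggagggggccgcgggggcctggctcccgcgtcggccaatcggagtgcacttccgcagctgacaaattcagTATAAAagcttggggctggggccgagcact
Nr4a1, chr15:101266596-101266875, + strand: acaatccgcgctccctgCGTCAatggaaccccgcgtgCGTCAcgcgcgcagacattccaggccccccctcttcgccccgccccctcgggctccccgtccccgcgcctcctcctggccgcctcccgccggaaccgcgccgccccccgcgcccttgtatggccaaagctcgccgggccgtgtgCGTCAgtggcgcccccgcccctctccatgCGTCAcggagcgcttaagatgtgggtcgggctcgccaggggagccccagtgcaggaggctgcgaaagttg
Atf3, chr1:191183304-191183583, - strand: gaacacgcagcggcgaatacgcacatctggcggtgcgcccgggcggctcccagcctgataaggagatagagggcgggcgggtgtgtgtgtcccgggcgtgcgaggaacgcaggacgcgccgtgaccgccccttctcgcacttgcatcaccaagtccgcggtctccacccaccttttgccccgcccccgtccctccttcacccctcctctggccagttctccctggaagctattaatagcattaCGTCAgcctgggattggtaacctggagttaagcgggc

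The RefSeq promoter table held a window for 8 of the 10 genes, all but Egr1 and Ier2. The CRE core, bound by CREB-type factors, was present in 5 of these 8 windows (Fos, Fosb, Junb, Atf3 and Nr4a1), against 19.9% of all 32851 promoter windows of the same length. Nr4a1 held 4 copies and Fos held 2. A TATA box was present at Fos and Junb (2 of 8, against 8.02% of all windows), and a GC box (GGGCGG on either strand) in 6 of 8, against 34.7%. All windows were taken whatever their base composition or openness, and these differences were not tested. GC content was 46.8% at Jund and 58.2 to 73.2% at the other genes with a window. None of the 8 held TGANTCA (7.46% of all windows) or a CArG box, the element of serum response factor (1.56%), which says only that these letters are absent from this window. The Jund window lay at -1210 bp from the start used here, where only 9 cells had a fragment, and the Fosl2 window lay 671 bp downstream of it.

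Distal open bins of Fos, Fosb, Nr4a1 and Junb are shown next, to set bins with and without the CRE core side by side. The bin at -20.1 kb of Nr4a1, next to the one shown, and the distal bins of Egr1 are described below without their sequence. Each sequence is the 200 bases around the base covered by most fragments under 150 bp, read on the + strand, and capitals mark the CRE core and, at the second Fos bin, the CArG box, which do not overlap.
Fos, bin at -18.64 kb, chr12:85455288-85455487: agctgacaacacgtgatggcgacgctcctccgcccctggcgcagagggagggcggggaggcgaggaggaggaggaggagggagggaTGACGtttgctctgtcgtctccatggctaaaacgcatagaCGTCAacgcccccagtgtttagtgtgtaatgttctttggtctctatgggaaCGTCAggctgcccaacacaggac
Fos, bin at 12.36 kb, chr12:85486016-85486215: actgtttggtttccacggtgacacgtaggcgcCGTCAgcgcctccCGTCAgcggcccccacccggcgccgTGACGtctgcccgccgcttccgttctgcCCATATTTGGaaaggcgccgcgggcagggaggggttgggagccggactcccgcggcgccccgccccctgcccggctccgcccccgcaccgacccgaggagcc
Fosb, bin at -10.2 kb, chr7:19320043-19320242: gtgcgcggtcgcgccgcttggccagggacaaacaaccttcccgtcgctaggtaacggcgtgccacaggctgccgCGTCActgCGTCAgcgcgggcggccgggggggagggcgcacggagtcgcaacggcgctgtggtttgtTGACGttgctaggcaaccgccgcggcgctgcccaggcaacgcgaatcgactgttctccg
Fosb, bin at -6.70 kb, chr7:19316564-19316763: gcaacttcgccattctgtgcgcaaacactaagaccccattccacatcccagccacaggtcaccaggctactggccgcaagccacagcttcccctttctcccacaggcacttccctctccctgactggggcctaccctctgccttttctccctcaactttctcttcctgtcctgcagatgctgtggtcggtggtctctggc
Nr4a1, bin at -20.6 kb, chr15:101246395-101246594: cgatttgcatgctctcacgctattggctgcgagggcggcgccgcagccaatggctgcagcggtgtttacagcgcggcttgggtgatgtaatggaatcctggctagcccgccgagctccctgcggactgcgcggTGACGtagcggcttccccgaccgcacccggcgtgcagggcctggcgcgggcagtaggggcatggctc
Junb, bin at -7.03 kb, chr8:84985788-84985987: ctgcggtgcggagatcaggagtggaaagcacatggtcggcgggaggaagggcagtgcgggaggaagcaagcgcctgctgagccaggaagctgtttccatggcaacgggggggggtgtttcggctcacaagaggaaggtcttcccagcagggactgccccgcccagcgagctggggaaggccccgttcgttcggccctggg
The Fos elements on either side of the gene and the Fosb element at -10.2 kb each held 3 CRE cores, and the Nr4a1 element held 1, while the other Fosb element and the Junb element held none.

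All 10 genes had an open start bin, compared with 48.0% of the 12961 other short protein-coding genes (gene body up to 25 kb). Atf3, with a body of 47.7 kb, is itself longer than this limit. The promoter, 500 bp on either side of the start, held a fragment in a median of 42.9% of cells over the 10 genes, against 3.09% over other short genes and 19.9% over the 6226 with an open start bin. Jund, a broadly expressed Jun family member, stood first with 80.0% of cells (78.5 to 81.3%), and Jun, the founding member, followed with 57.3% (55.5 to 59.0%). Nr4a1 (50.6%, 48.8 to 52.4%) and Fosl2 (50.3%, 48.5 to 52.0%), which encodes the Fra-2 protein, did not differ beyond their intervals.
Egr1 had 43.7% (42.0 to 45.5%), Fosb 42.1% (40.3 to 43.8%), Ier2 40.8% (39.0 to 42.5%), Junb 40.4% (38.7 to 42.2%) and Fos 38.2% (36.5 to 39.9%). Within this group the intervals of neighbours overlapped, while those of Egr1 and Fos did not. Atf3, a stress-responsive factor, was lowest with 17.7% (16.4 to 19.1%), and 26.2% of other short genes reached at least its share. For Egr1 the share depended on the start: the RefSeq start lies 1384 bp downstream of the annotated principal start, and with the annotated start that collected most fragments the share was 64.2%.

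The open domain, the unbroken run of open bins that holds the start, was at least 2000 bp wide at all 10 genes in the passing cells, and at 9 over all called cells, where the Fosb domain was 1500 bp. This width was met by 10.9% of other short genes and by 22.7% of those with an open start bin. Jund, Egr1 and Ier2 had domains of 7000 bp (for Egr1, 4000 bp without the doublet-marked cells and over all called cells, since 1 bin of its domain held fragments in just the 63 cells required), Junb 6500 bp, Jun 6000 bp and Fosl2 5000 bp. Fosb had 3500 bp and Fos 2500 bp, and Atf3 and Nr4a1 just met the criterion with 2000 bp. The median was 5500 bp, against 1500 bp over other short genes with an open start bin, and only 0.0463% of other short genes had a domain of 7000 bp or more. The count of 10 depended on how an open bin was called: with at least 5% of cells 5 genes had this width (2.41% of other short genes), with fragments under 150 bp 4 did (1.84%), and with each cell thinned to 3000 fragments 5 did (1.17%). Looser calls kept all 10 but brought in more of the other short genes, namely 21.2% with both fragment ends counted, 23.8% with an open bin at 1% of cells and 39.9% with bins of 1000 bp. At 4 genes the domain took in starts of other genes. The Fosl2 domain contains the start of Gm10463, that of Jun the starts of Gm12703 and Junos, that of Jund those of Gm11175 and Iqcn, and that of Ier2 that of Gm26664, in the bin at -2.40 kb (8.94% of cells). The second highest bin of the Ier2 domain, at -1.40 kb, held a fragment in 32.3% of cells. It lies within 1000 bp of the Gm26664 start and not of an Ier2 start. The Junb domain reached over the whole gene body to a second maximum at 1.97 kb (28.2% of cells, against 37.2% in the start bin).

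**Figure D1:**
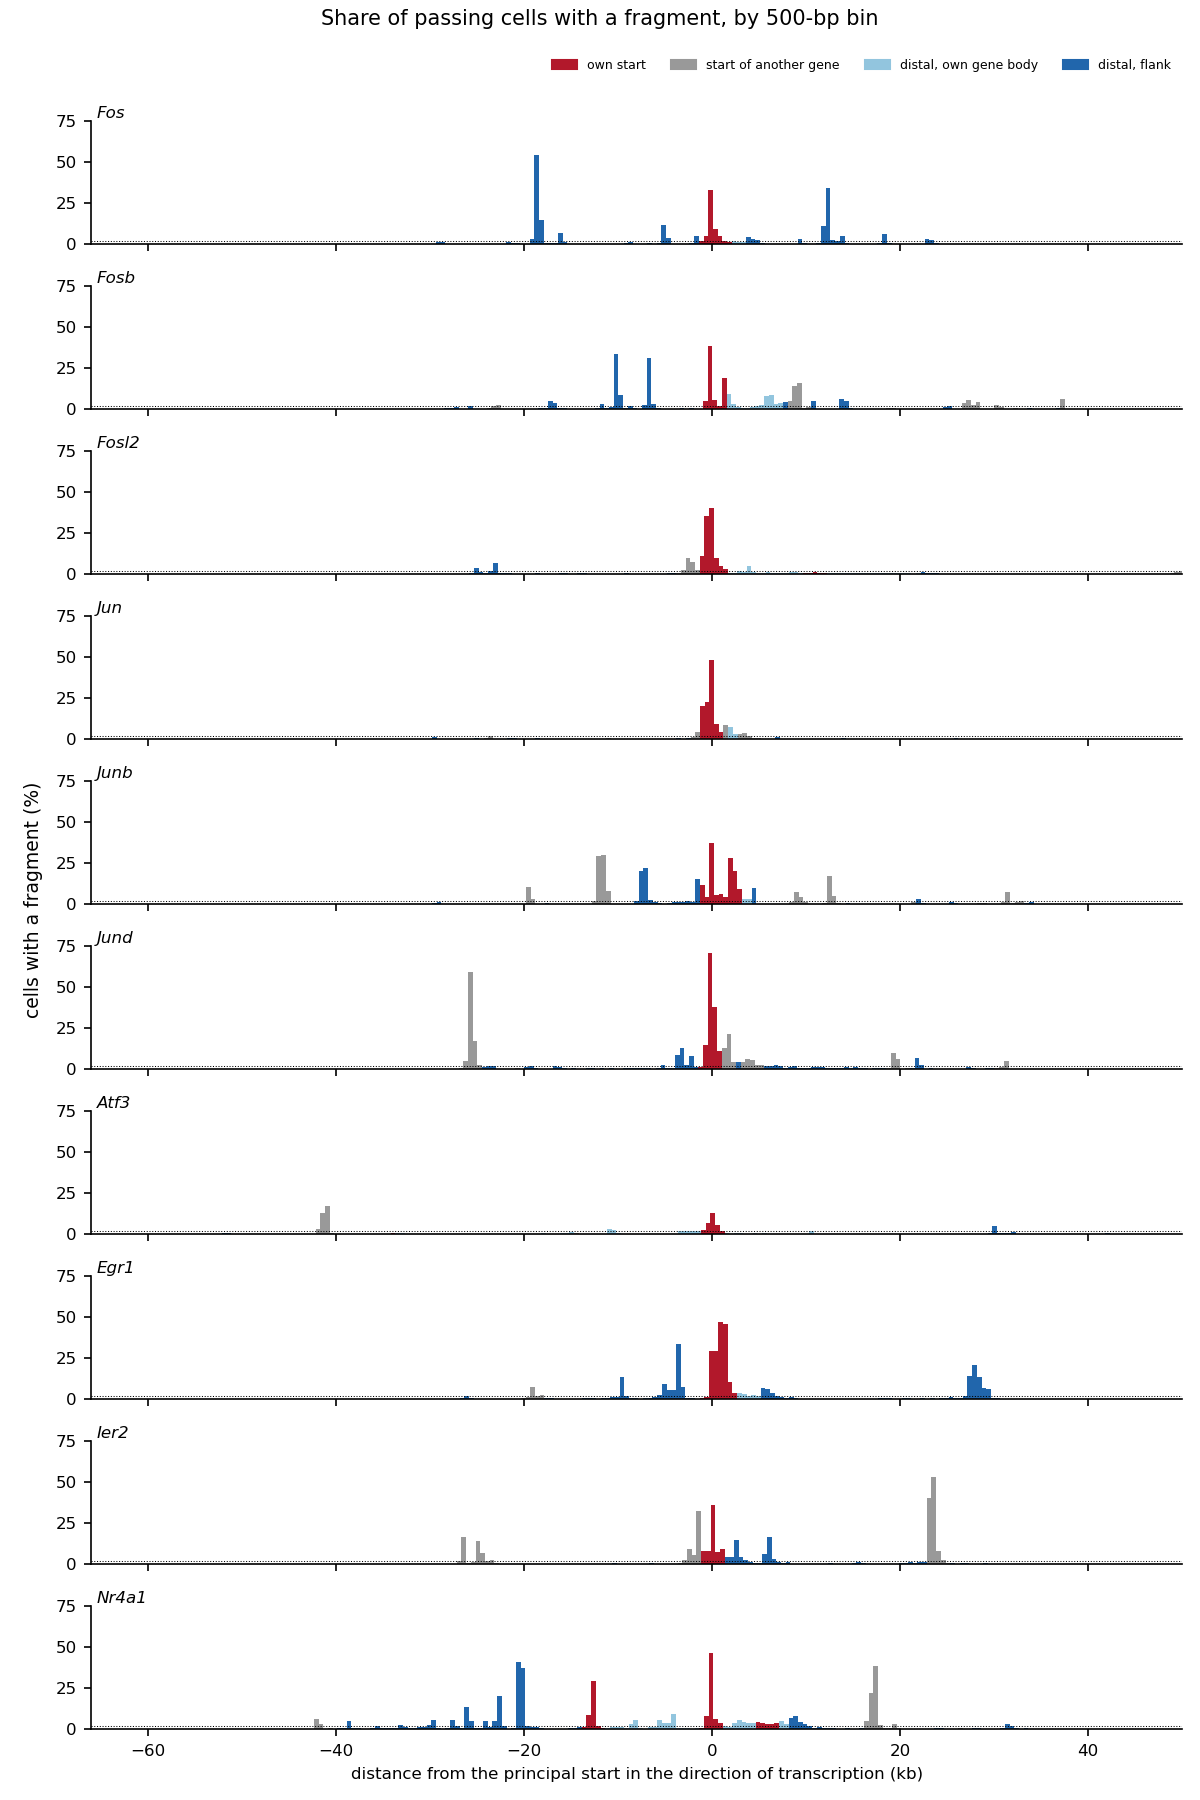
Share of the 3108 passing cells with at least 1 fragment in each 500-bp bin (vertical axis, %) against the distance from the principal start in the direction of transcription (horizontal axis, kb), with 1 panel per gene and the dotted line at the 2% needed for an open bin. Red bars lie within 1000 bp of a start of the gene itself, grey bars within 1000 bp of a start of another gene, light blue bars in the gene body and dark blue bars in the flanks, and Fos, Fosb, Nr4a1 and Egr1 show tall blue bars while Jun shows none in its flanks.

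Outside promoters, 127 bins of the 10 loci were distal and open, which means over 1000 bp from every annotated start of any gene. Of these, 95 lay in the 30-kb flanks. At least 5 distal open flank bins were present at 7 of the 10 genes, compared with 14.2% of other short genes and 21.3% of those with an open start bin. Fos and Nr4a1 had 18 each, Egr1 17, Fosb 14, Jund 10, Ier2 8 and Junb 6. The flank bins that could be distal numbered from 73 at Junb to 117 at Fos. As a share of them, Nr4a1 had 18.4%, Fosb 16.1%, Fos 15.4% and Egr1 15.2%. Fosl2 (3), Atf3 (1) and Jun (0) did not meet the criterion. The median was 9 bins, against 1 over other short genes, and 0.324% of other short genes had 18 or more. With at least 5% of cells for an open bin, Fos, Fosb, Egr1 and Nr4a1 met the criterion, against 2.67% of other short genes, and with thinned cells Fos, Egr1 and Nr4a1 did, against 0.988%. Some distal bins lie inside the gene's own open domain and so enter both measures: outside it 83 of the 95 flank bins were left, Ier2 had 3 and Junb had 4, and 5 genes met the criterion, against 14.1% of other short genes.

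**Figure D2:**
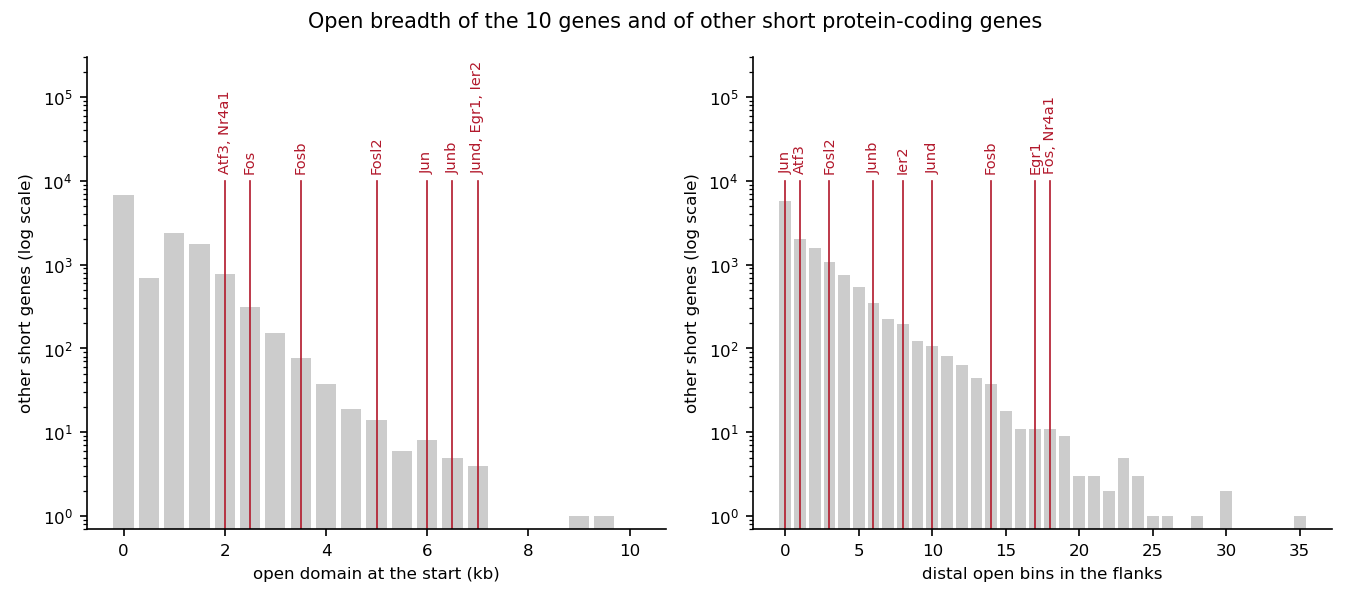
Width of the open domain at the start (left, kb) and number of distal open bins in the 30-kb flanks (right) for 12961 other short protein-coding genes (grey bars, number of genes on a log scale) and for the 10 genes (red lines). All red lines in the left panel stand at 2 kb or more, and in the right panel they spread from 0 for Jun to 18 for Fos and Nr4a1.

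Fos (chr12:85473890-85477273), which encodes the inducible partner of Jun, carried the most open distal bin of the 10 loci. The bin at -18.64 kb (chr12:85455001-85455500, intergenic) held a fragment in 54.4% of cells (52.7 to 56.2%), more than the 33.3% (31.7 to 35.0%) of the Fos start bin, and its 2629 fragments were 373 times the mean of 7.05 per bin. The nearest protein-coding start is that of Fos, and the nearest RefSeq transcript start, that of the noncoding Gm38543, lies 3.20 kb away. A second bin, at 12.36 kb (chr12:85486001-85486500), was open in 34.0% of cells (32.3 to 35.7%), a level that did not differ from the start bin beyond the intervals. The 18 distal open bins fell into 10 separate stretches, 7 bins upstream and 11 downstream.

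Fosb (chr7:19302696-19310051), a close relative of Fos, had its strongest distal bins upstream, at -10.2 kb (chr7:19320001-19320500, within the noncoding D830036C21Rik) with 33.7% of cells and at -6.70 kb (chr7:19316501-19317000, intergenic) with 31.5%, against 38.6% in the start bin. The next bin, in a Fosb intron, fell to 9.17%. Nr4a1 (chr15:101254269-101274795) had neighbouring bins at -20.6 kb (chr15:101246001-101246500) and -20.1 kb that were open in 40.8% and 37.3% of cells, and another at -22.6 kb in 19.9%, against 46.6% at the start. An upstream start of Nr4a1, whose bin lies at -12.6 kb and was open in 29.2% of cells, is nearer to these bins, at 8.02 kb from the strongest of them. With 31 distal open bins in gene body and flanks, in 13 stretches, Nr4a1 had the most of the 10.
Egr1, on chromosome 18, had a bin at -3.57 kb with 33.5% of cells (31.9 to 35.2%), above the 29.4% (27.8 to 31.0%) of the bin with its principal start and below the 47.2% of the highest bin near a start of the gene. A group of bins further away reached 20.6% at 27.9 kb.

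At the Jun family and the 3 remaining loci, distal bins were weaker. Junb (chr8:84974484-84978718), an AP-1 subunit that restrains proliferation in many settings, had 22.3% and 19.9% of cells in neighbouring bins at -7.03 kb (chr8:84985501-84986000) and -7.53 kb. The nearest protein-coding start to the first is not Junb but Hook2, at 4.85 kb. Jund (chr8:70698949-70700616) reached 13.1% at -3.20 kb, against 70.6% in its start bin, and its bin at -2.20 kb (7.79%) lies 0.99 kb from the RefSeq start of Jund. Ier2 (chr8:84661331-84662852) reached 16.6% at 6.10 kb and 15.0% at 2.60 kb. Fosl2 (chr5:32135801-32157842) did not exceed 6.89% (-23.1 kb), and Atf3 (chr1:191170296-191218039) did not exceed 5.18%, in a bin 11.6 kb from the start of Fam71a. Jun (chr4:95049034-95052222) had distal open bins only within its own exon, at 7.30% and 2.99%, and the next, at 6.97 kb, had fragments in 44 cells, or 1.42%, and was not open. Jun thus combined a promoter share above the median of the 10 genes with no distal open bin in its flanks. Its flanks held 6 open bins, all within 1000 bp of an annotated start and so not counted as distal.

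The 127 distal open bins were read for motifs on both strands. TGANTCA was present in 23 (18.1%), against 16.0% of all 35451 distal open bins, and the CRE core in 26 (20.5%), against 20.9%. A CArG box was present in 5 (3.94%, against 2.43%), a GATA motif (AGATAA) in 22 (17.3%, against 22.0%), a RUNX motif (TGTGGT) in 41 (32.3%, against 38.4%) and an ETS motif (CCGGAA) in 20 (15.7%, against 10.1%). These differences in share were not tested. By gene, Fosb held 8 of the 23 bins with TGANTCA, in 21 distal open bins, and Jund and Fos held 0 and 1 in 10 and 18. In base composition, 12 of the 127 bins (9.45%) were CpG-rich, with a GC content of at least 55% and an observed to expected CpG ratio of at least 0.6, against 4.28% of all distal open bins. Of the 9 distal bins of these loci open in at least 20% of cells, 5 were CpG-rich (1 each at Fos, Fosb and Egr1 and 2 at Nr4a1), compared with 23.1% of the 697 such bins in the genome. Of the 127 bins, 10 lie within 1000 bp of a RefSeq transcript start that the gene annotation used here lacks.

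Related gene lists were read the same way. The 10.9% for domain width and 14.2% for distal bins describe genes of at most 25 kb, and many list genes are longer, so the counts of short genes alone follow those of the whole lists. Of 17 other immediate-early genes, 12 had a domain of at least 2000 bp and 8 had at least 5 distal open bins. Btg2, an antiproliferative gene, had 20 such bins, Dusp2, a MAP kinase phosphatase, had 11, Zfp36, which encodes an mRNA decay factor, had 10, and Csrnp1 had 9. The Zfp36 bin at its principal start was not open, and its promoter share was 3.44%. Of 11 Kruppel-like factor genes, 8 met the width criterion but only 1 the distal one (Klf2, a regulator of quiescence in lymphocytes, with 10 bins, followed by Klf16 with 4 and 5 genes with 3 each, among them Klf10 and Klf11).
Of 12 NF-kB genes and inhibitors, 6 were wide and 5 had enough distal bins, led by the inhibitor gene Nfkbie with 14, then Bcl3 with 7 and Nfkbid and Nfkbiz with 6. Of the 7 other AP-1 family genes and partners, all open at the start, 2 met each criterion, and Batf3 and Jdp2 had 5 distal bins and Batf and Fosl1 had 3. Of 8 upstream factors, which include serum response factor, its partners and CREB family genes, 4 were wide and 2 had enough distal bins, namely Elk4 with 7 and Mrtfb with 6, while Elk3 and Mrtfa had 2. The lists are small and were not tested against each other. Among the short genes of the lists, 10 of 15 other immediate-early genes were wide and 8 had enough distal bins. The corresponding counts were 5 and 1 of 7 Kruppel-like factor genes, 5 and 4 of 9 NF-kB genes and inhibitors, 0 and 1 of 3 AP-1 partners and 1 and 0 of 2 upstream factors. Both criteria together were met by 3.38% of other short genes (7.04% of those with an open start bin), 7 of the 10 genes, 5 of 17 other immediate-early genes and 1, 2, 1 and 0 genes of the other lists, in the order Kruppel-like, NF-kB, AP-1 partners and upstream factors. Of these list genes only Jdp2, an AP-1 partner, is longer than 25 kb. The joint count of 7 fell to 1 (Egr1) with an open bin at 5% of cells and with thinned cells, against 0.255% and 0.0617% of other short genes, and to 2 (Egr1 and Jund) with fragments under 150 bp, against 0.224%. With only the distal bins outside a gene's own domain it was 5, without Ier2 and Junb, against 3.29% of other short genes. Looser calls kept a joint count of 7, against 8.87% with both fragment ends counted and 9.25% with bins of 1000 bp. With an open bin at 1% of cells the joint count was 8, against 13.2% of other short genes.

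**Figure D3:**
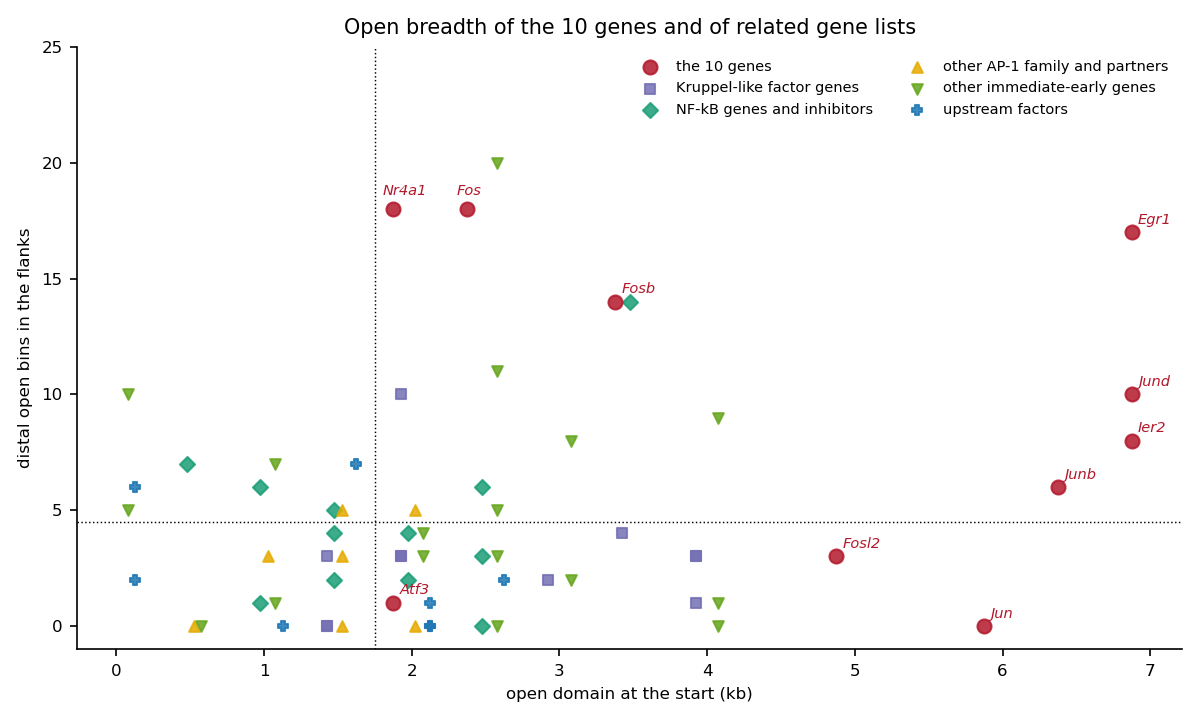
Width of the open domain at the start (horizontal axis, kb) against the number of distal open bins in the flanks (vertical axis) for the 10 genes (red circles, named) and for the genes of 5 related lists (other symbols, shifted slightly sideways to separate them), with dotted lines at the 2 criteria. Egr1, Jund, Ier2 and Junb lie at upper right, and Fosl2, Jun and Atf3 lie under the horizontal line.

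Covariation was measured over the 3108 cells as Pearson's r between fragment counts within 1000 bp of the start, after the count expected from each cell's total fragments was taken off. The counts were sparse, from 979 fragments at Atf3 (no fragment in 77.2% of cells) to 6711 at Jund (17.3% without), and every r was weak. The 45 pairs had a median r of 0.029, from -0.035 to 0.109, and 41 were above 0. Pairs of other short genes with at least 979 fragments (3017 genes, 4274430 pairs on different chromosomes) had a median r of 0.0073, and 65.2% of them were above 0. An r of at least 0.05 was reached by 7 of the 45 pairs, compared with 1.4% of the other pairs.
The highest was Jun with Jund at 0.109, followed by Junb with Nr4a1 at 0.062 and Fosl2 with Nr4a1 at 0.061. The pair Junb and Ier2 (0.060) lies 0.316 Mb apart on chromosome 8. The lowest was Junb with Atf3 at -0.035. Pairs of the 10 genes on different chromosomes had a median r of 0.0278. Paired with genes of the related lists on other chromosomes, the 10 genes had a median r of 0.0193 for Kruppel-like factor genes. It was 0.0200 for 8 of the 12 NF-kB genes and inhibitors and 0.0174 for 13 of the 17 other immediate-early genes. The values rose with the number of fragments: among the 308 other short genes with at least as many fragments as Jun, a comparison chosen after the Jun and Jund value was seen, the median r was 0.0278, 13.3% of pairs reached 0.05 and the highest was 0.108.

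**Figure D4:**
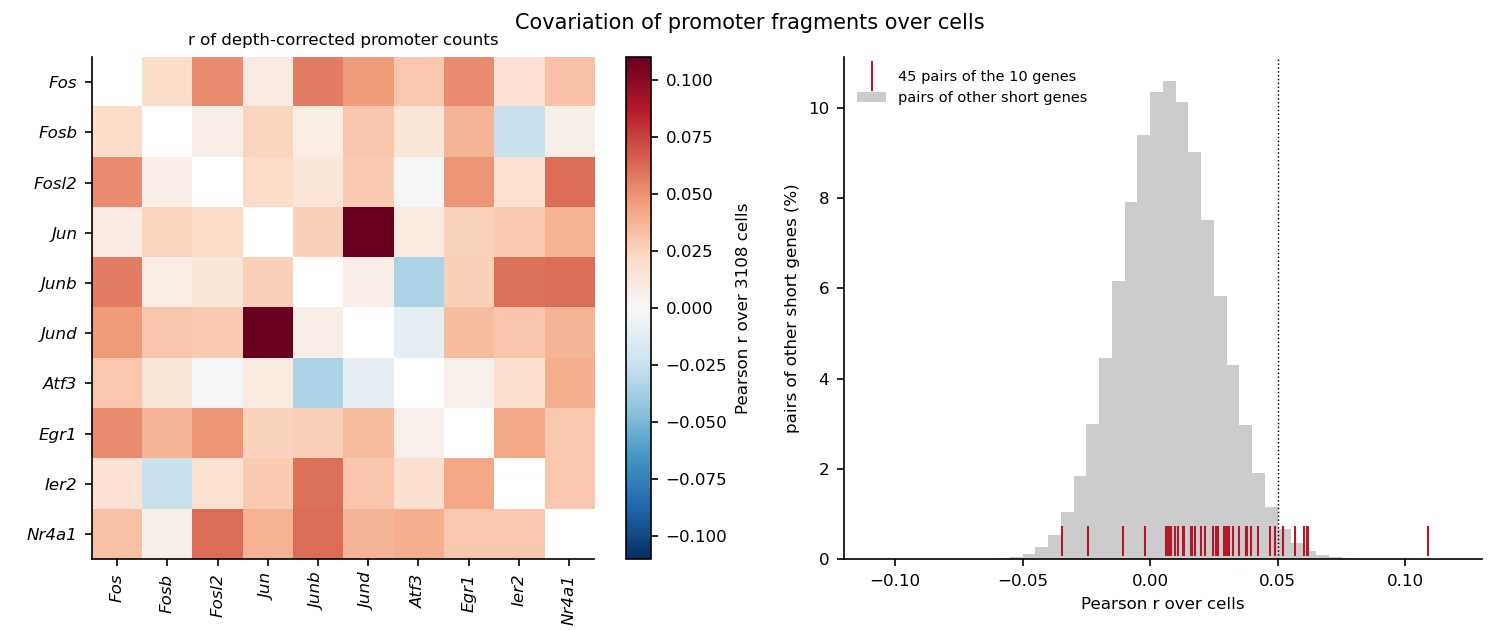
Pearson's r over 3108 cells between depth-corrected promoter counts, as a colour map for the 10 genes (left) and as red ticks on the distribution for pairs of other short genes on different chromosomes (right, % of pairs), with the dotted line at 0.05. Most red ticks lie to the right of the peak of the grey distribution, and the tick at 0.109 is Jun with Jund.

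A quality measure moved with these values. The share of a cell's fragments that lie at gene starts correlated with every one of the 10 promoters, with r from 0.039 at Atf3 to 0.202 at Jund (median 0.111, against 0.076 over other genes). When promoter fragments replaced total fragments as the depth, the median r of the 45 pairs was 0.0115, against -0.00017 over other pairs, and 3 pairs reached 0.05, compared with 0.37% of other pairs. Jun with Jund then had 0.087, Fosl2 with Nr4a1 0.052 and Junb with Nr4a1 0.051. RNA UMIs per cell and the share of mitochondrial read pairs had r between -0.037 and 0.022 with each promoter. The logarithm of total fragments had r from -0.134 at Jund to 0.0057 at Atf3 (median -0.062, against -0.032 over other genes), so the corrected counts still followed depth.
The distal open bins of each locus, summed, gave a median r of 0.018 between loci, and 5 of 45 pairs reached 0.05, compared with 0.657% of other pairs. The highest was Fos with Fosb at 0.092, then Egr1 with Nr4a1 at 0.075. Here too the values rose with the number of fragments. Fos, Fosb, Egr1 and Nr4a1 had the most distal fragments of the 10 loci, and 2 of their 6 pairs reached 0.05, while among the 35 other short genes with at least the 5697 distal fragments of Fosb, a comparison added after these values were seen, 23.9% of 494 pairs did, with a median r of 0.0256 and a highest value of 0.0964. Jun with Jund, the highest pair of promoters, had 0.014 here.

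Within a locus, promoter and distal counts of the same cell had r of 0.167 at Nr4a1, 0.118 at Egr1, 0.108 at Ier2, 0.089 at Fos, 0.084 at Jund and 0.065 at Fosb. The other 4 genes had r from 0.0055 at Fosl2 to 0.032 at Junb. Over 1467 other short genes the median was 0.027, with 0.082 at the upper 5%. Distal fragments numbered from 1843 at Jund to 8876 at Nr4a1 among the genes named first. Fosl2, Jun and Atf3 had 628, 366 and 357, and Junb had 2896. No comparison with genes of similar fragment number was made for these values. The variance of depth-corrected promoter counts over cells, which is 1 for Poisson counts at a given depth, had a median of 1.30 (1.19 at Fosb to 1.41 at Fosl2), against 1.26 over the other genes.

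A median of 5 of the 10 promoters held a fragment in a given cell. No promoter had one in 15 cells, and all 10 had one in 5 cells. This number followed depth, with a mean of 3.51 in the 777 cells with fewest fragments (median 7455) and 5.57 in the 776 cells with most (median 15525). After each cell was thinned to 3000 fragments, the mean was 1.74, and the same cells had 1.83 and 1.64. The thinned shares kept Jund first (38.0% of cells) and Atf3 last (5.92%).

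**Figure D5:**
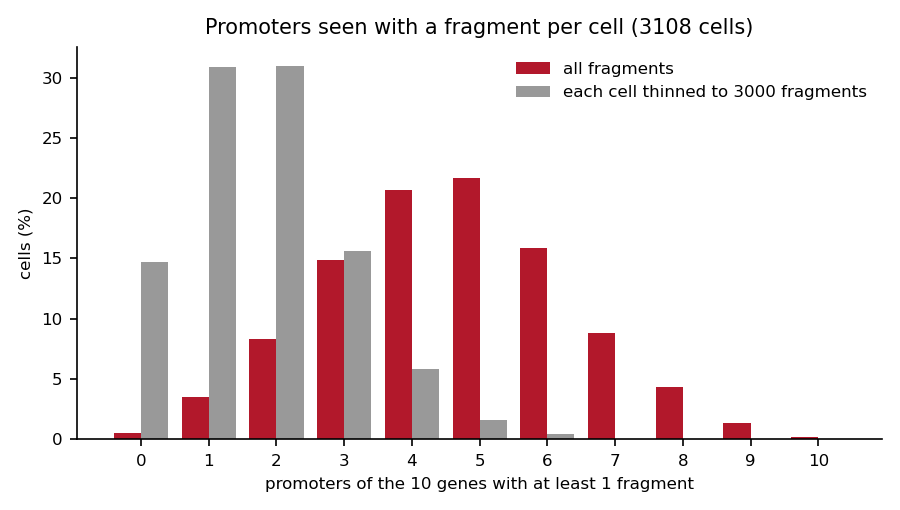
Share of the 3108 cells (vertical axis, %) by the number of the 10 promoters that held at least 1 fragment (horizontal axis), with all fragments (red) and after each cell was thinned to 3000 fragments (grey). The red bars peak at 5 promoters and the grey bars at 1 and 2.

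The 5 other protein-coding genes whose promoter counts were most like the summed residuals of the 10 genes, of 5938 examined over 3108 cells, were Opa3 (r 0.128), Coq10b (0.117), Skil (0.114), Cdk11b (0.109) and Mapk6 (0.109). The median over the genes examined was 0.028, and Opa3 lies 81.7 kb from Fosb. These likenesses are weak, and the 5 genes had between 3687 and 6977 promoter fragments, so that they stand among the genes with the highest counts. The summed residuals had r of 0.316 with the share of a cell's fragments at gene starts, higher than with any of the 5 genes.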

How the data were processed

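The authors aligned reads to mm10 with Cell Ranger ARC 2.0.2, collapsed duplicate read pairs into unique fragments and called cells, per the submitters' notes and file headers. The deposited values used here were counts, that is a list of fragments with barcodes and whole-number counts of fragments and UMIs per barcode. Fragments of the HSC ATAC library were assigned by midpoint to 500-bp bins with Python 3.11.15, numpy 2.4.6, scipy 1.17.1 and pandas 2.3.3, using GENCODE M21 starts (the principal transcript, with ties settled by the lowest transcript number, a rule set after the design but before counting). In the 3108 passing cells, 69.1% of read pairs were duplicates. Doublets were kept, and an alternative left out the 62 cells (2%) with most sites covered by more than 2 fragments.

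Shares have exact binomial intervals. Residuals were observed minus expected counts over the square root of the expected count. Chromosome Y and unplaced sequences were left out. The 10 genes, the gene lists, the motifs and the criteria were chosen with earlier results of these data known. Named are all 10 genes, their start bin and 3 strongest distal bins, the 4 genes of each list with most distal open bins, and the 5 genes most like the 10. Sequences are from RefSeq GRCm38.p6. Calculations were tested on simulated data.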

Additional observations from a re-analysis of the deposited data

How the results depend on the processing

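No paired analysis was possible because there is 1 ATAC library. Of 52 values recomputed under alternatives, 35 moved by less than the set limit (a factor of 1.5 for counts, the counting interval for others) and 17 by more. With an open bin at 5% of cells, the genes with a domain of at least 2000 bp fell to 5 (Egr1, Jun, Fosl2, Jund and Ier2; 2.41% of other short genes), those with at least 5 distal bins to 4 (Fos, Nr4a1, Egr1 and Fosb; 2.67%) and the total to 48. At 1% the total was 164. With fragments under 150 bp the wide domains numbered 4 (1.84% of other short genes), the total 56, the median share 30.7% and the residual variance 1.20. The median share was 37.0% over all called cells, 46.2% at the start with the most fragments and 15.3% after thinning, and thinning gave a residual variance of 1.07, 5 wide domains, 3 genes with at least 5 distal bins and a total of 29. Thinning of the breadth counts and the count outside a gene's own domain were added after seeing the data. That variance was 1.25 with promoter fragments as depth and 0.578 with counts reduced to presence or absence. The median pair r lay between 0.011 and 0.061 over all alternatives. Its set limit was larger than the reported value of 0.029, so that all its alternatives counted as unmoved says little about its stability. Single domains moved with 1 bin: the Egr1 domain was 4000 bp without the doublet-marked cells and over all called cells, and over all called cells the Fosb domain was 1500 bp, which left 9 wide domains (8.87% of other short genes). Cells of 1 library share depth and handling, so neither the intervals nor the shares speak to variation between animals, and distal bins were tied to genes by distance alone.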
